A study of Mus musculus with 8 samples.

Results

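Of 2460747 autosomal windows of 1 kb, 900 (0.0366%) were covered by listed peaks of the histone mark H3K9me2 in wild-type regulatory T cells and fell short of the same coverage in cells lacking Jmjd1c. A window was a member if merged H3K9me2 peaks covered 500 bp or more of it in all 3 wild-type (WT) libraries and in none of the 3 knockout (cKO) libraries. The rule used the peaks of all 6 libraries, so the difference between WT and cKO in these windows was how they were chosen, and it was not tested. Tumour-infiltrating regulatory T cells (Treg) came from C57BL/6 mice of 8 to 12 weeks, with the genotype JMJD1CWT or JMJD1CTregcKO, a deletion of Jmjd1c restricted to Treg. H3K9me2 was profiled in 3 libraries of each genotype, labelled CUT&RUN, although the protocol names a CUT&Tag kit, in which an antibody directs a transposase to the marked chromatin. Open chromatin was profiled by ATAC-seq in 1 library of tumour Treg and 1 of spleen Treg, all with the genotype JMJD1CWT. The labels name neither the tumour nor the driver of the deletion, and they do not say whether the 3 libraries of a genotype came from separate mice.

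Dimethylation of lysine 9 on histone H3 is laid down by the methyltransferases G9a and GLP and lies mostly over silent, gene-poor and lineage-inappropriate chromatin. JMJD1C (KDM3C) belongs to a family of demethylases that remove methyl groups from this lysine. Treg are CD4 T cells defined by the transcription factor Foxp3, and within tumours they restrain the immune response. In the tumour ATAC library, 6 of 7 Treg and T cell marker genes had a peak in or within 5 kb of the gene, with 25 peaks in all and none at Ctla4. Foxp3 had 2 such peaks. None of the 4 CD8 T and NK cell markers had one, against 1 of 3 B cell, 1 of 4 myeloid, 1 of 4 melanocyte and epithelial and 2 of 3 stromal and endothelial markers, the last with 8 peaks, 7 of them at Pecam1. The H3K9me2 lists held no measure of cell identity.

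Of the 900 windows, 4 touched the promoter of a protein-coding gene, and the sequences at these gene starts are shown. Each sequence runs 5′ to 3′ on the strand of the gene, from 250 bases before to 50 bases after its start, and was taken from RefSeq on GRCm38.p6. Capitals mark the bases covered by peaks of all 3 WT libraries and of no cKO library, and lower case marks the rest.
Rhbdd1, chr1:82316329-82316628, plus strand: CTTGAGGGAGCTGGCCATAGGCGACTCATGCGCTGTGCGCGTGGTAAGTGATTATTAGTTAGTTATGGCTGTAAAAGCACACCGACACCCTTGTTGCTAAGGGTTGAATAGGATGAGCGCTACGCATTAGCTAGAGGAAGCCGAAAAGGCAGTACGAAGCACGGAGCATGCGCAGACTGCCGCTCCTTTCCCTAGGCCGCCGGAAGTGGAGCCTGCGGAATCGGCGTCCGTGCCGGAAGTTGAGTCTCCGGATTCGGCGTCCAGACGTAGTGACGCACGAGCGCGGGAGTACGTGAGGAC
Zfp160, chr17:21008691-21008990, plus strand: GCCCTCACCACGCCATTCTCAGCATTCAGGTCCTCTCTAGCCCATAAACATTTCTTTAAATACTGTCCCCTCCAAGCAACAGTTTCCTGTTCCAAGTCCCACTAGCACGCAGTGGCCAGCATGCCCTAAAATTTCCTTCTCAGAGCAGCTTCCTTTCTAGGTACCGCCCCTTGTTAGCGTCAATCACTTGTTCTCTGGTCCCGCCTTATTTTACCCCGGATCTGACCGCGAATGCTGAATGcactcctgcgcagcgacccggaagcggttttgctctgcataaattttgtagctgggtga
Btbd8, chr5:107437680-107437979, plus strand: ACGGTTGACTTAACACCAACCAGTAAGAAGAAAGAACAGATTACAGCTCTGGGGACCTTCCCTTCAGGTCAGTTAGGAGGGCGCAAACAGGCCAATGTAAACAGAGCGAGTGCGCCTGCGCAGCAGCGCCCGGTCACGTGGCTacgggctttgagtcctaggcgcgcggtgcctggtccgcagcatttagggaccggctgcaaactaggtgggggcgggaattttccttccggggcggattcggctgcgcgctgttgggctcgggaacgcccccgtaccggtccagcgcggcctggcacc
Prdx3, chr19:60874489-60874788, minus strand: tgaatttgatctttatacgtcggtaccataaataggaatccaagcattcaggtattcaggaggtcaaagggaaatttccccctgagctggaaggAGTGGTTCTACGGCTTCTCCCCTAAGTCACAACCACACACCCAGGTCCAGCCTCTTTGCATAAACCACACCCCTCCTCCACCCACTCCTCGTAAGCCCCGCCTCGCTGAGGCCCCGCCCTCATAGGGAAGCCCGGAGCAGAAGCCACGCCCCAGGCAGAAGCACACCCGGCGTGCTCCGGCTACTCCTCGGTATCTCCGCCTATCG

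All 300 bases of the promoter of Rhbdd1, which encodes a rhomboid protease that cuts proteins within membranes, lay under a listed peak in every WT library and in no cKO library. Its window was covered over 730, 681 and 755 bp in WT1 to WT3 and over 0 bp in each cKO library. The adjacent window was a member as well, and together they were covered over 1584, 1681 and 1755 bp of 2 kb in WT1 to WT3. Both windows lay under the same peak in each WT library, so they are not separate observations. At Zfp160, a zinc-finger protein gene, 241 promoter bases lay under peaks in all WT libraries, and the window was covered over 608, 666 and 625 bp, against 0 bp in cKO1 to cKO3. The promoter of Btbd8, which encodes a BTB-domain protein, held 143 such bases. Its window was covered over 855, 500 and 822 bp in WT, and over 404, 0 and 0 bp in cKO, so that cKO1 was close to the WT2 value. At Prdx3, which encodes a mitochondrial peroxiredoxin that removes hydrogen peroxide, 206 promoter bases were shared, and the window was covered over exactly 500 bp in each WT library and 0 bp in each cKO library. In the Prdx3 window each WT value was the minimum the rule allows, which was also the fixed peak size set in the peak calls.

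CpG, the dinucleotide at which DNA is methylated, occurred 28 times in the promoter of Rhbdd1, 26 times in Btbd8, 15 times in Prdx3 and 12 times in Zfp160. Over 21263 promoters of protein-coding genes the median was 13 and the quartiles 4 and 24, so Rhbdd1 and Btbd8 lay above the upper quartile and the other 2 near the median. Their GC content was 57.7% in Rhbdd1, 62.3% in Btbd8, 57.0% in Prdx3 and 51.3% in Zfp160, beside a median of 56.3%. The motif GGGCGG, a GC box, occurred 1 time in Zfp160, 2 times in Btbd8 and 1 time in Prdx3, and 46.2% of coding promoters held it. TATAAA occurred 1 time in Prdx3 (12.6% of promoters), and CCAAT 1 time in Btbd8 (38.2% of promoters). Both strands were searched, no motif is part of another, and none of these letters occurred in the 300 bases of Rhbdd1. A further 4 members touched the annotated start of a non-coding RNA, Gm30725, Gm52183, Gm35982 and LOC105244755. The 4 members at a coding promoter were 0.444% of all members (95% exact binomial interval 0.121 to 1.13%). The interval holds the 0.943% of all autosomal windows that touched one. The share was 0.632% of windows covered in all cKO and no WT libraries, and 0.551% of those covered in other sets of exactly 3 libraries. The promoter table was not complete, and all these shares count only the starts it holds.

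The number of members was near the middle of what any 3 of the 6 libraries gave. The libraries can be divided into 3 and 3 in 10 ways, giving 20 sets of 3, and the other 9 splits gave 520 to 1579 windows covered in exactly their 3 libraries, with a median of 957.5. The 900 WT-only windows lay below 11 of these 18 counts and above 7 of them. The reverse set, covered in all of cKO1 to cKO3 and in no WT library, held 1425 windows (0.0579%), and 1 mixed set, WT1 with cKO1 and cKO2, held more. Both sides of the genotype split together held 2325 windows, against 1848 to 2099 for the other splits. In the sets with 1 cKO library, counts followed the number of windows that library covered. Sets of 2 WT libraries with cKO1 held 1011 to 1303 windows, those with cKO2 762 to 1077, and those with cKO3 520 to 836, while the windows covered in the single library were 131759, 110143 and 89923 for cKO1 to cKO3. The WT libraries covered 93430, 99482 and 82515 windows, and for them the order did not hold: the set of cKO1 and cKO2 with WT1 held 1579 windows and that with WT2, the longer list, 1379.

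**Figure D1:**
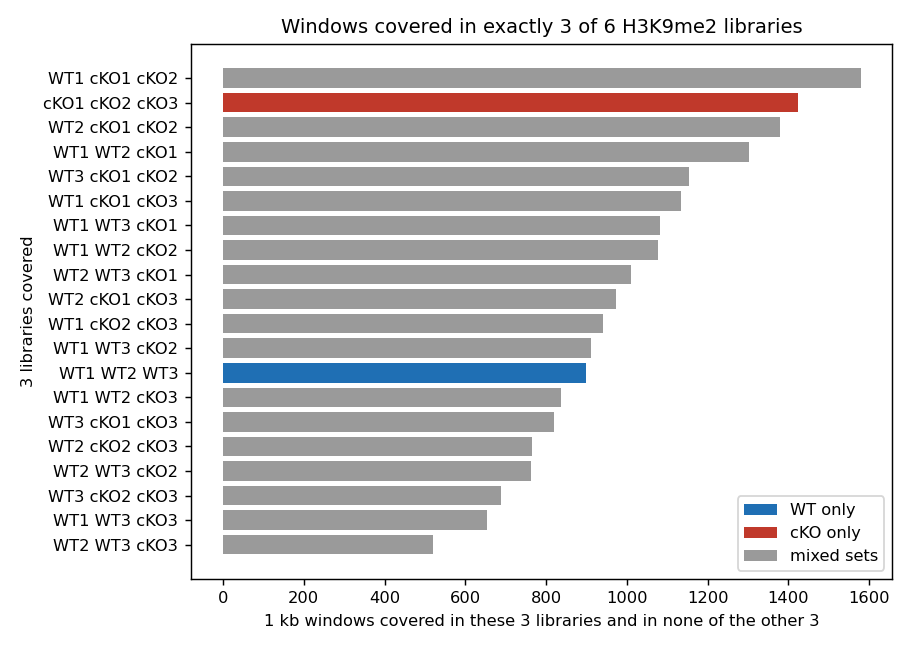
Number of autosomal 1 kb windows (horizontal axis) covered over 500 bp or more in exactly the 3 named H3K9me2 libraries, for each of the 20 sets of 3. WT only (blue, 900) lies within the mixed sets (grey, 520 to 1579), and cKO only (red, 1425) is second to 1 mixed set.

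With every list shortened to its 101728 strongest autosomal peaks, the WT-only count was 905 and the cKO-only count 869. The other sets then gave 536 to 1066, with a median of 790.5, and 6 of them exceeded the WT-only count. Of the 900 members, 822 (91.3%) were also members with the shortened lists. Leaving out 1 WT library loosens the rule and gave 4981 windows without WT1, 5206 without WT2 and 6072 without WT3. Leaving out 1 cKO library gave 1344, 1230 and 1118 windows without cKO1, cKO2 and cKO3. Of the 2619 windows covered in all 3 WT libraries, 900 (34.4%) were covered in no cKO library, 992 (37.9%) in 1, 562 (21.5%) in 2 and 165 (6.3%) in all 3. Of the 3420 windows covered in all 3 cKO libraries, 1425 (41.7%) were covered in no WT library.

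Within the members, coverage was similar in the 3 WT libraries. The median was 728.5 bp in WT1, 696 bp in WT2 and 738 bp in WT3, and the values ran from 500 to 1000 bp in each. A full 1000 bp was reached in 208 members in WT1, 204 in WT2 and 225 in WT3, and in all 3 WT libraries at once in 37 members (4.11%). The cKO medians were 0 bp, with 678 members at 0 bp in cKO1, 737 in cKO2 and 793 in cKO3, in the reverse order of the number of windows each cKO library covered. No peak base of any cKO library lay in 509 members (56.6%). The remaining 391 (43.4%) were partly covered in at least 1 cKO library, with highest values of 497, 499 and 499 bp in cKO1 to cKO3. The 3 WT libraries did not always cover the same bases. The bases covered in all of them numbered 10 to 1000 per member, with a median of 500, and 496 members (55.1%) had 500 or more.

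Many members lay close to the threshold. The WT library with least coverage had 500 to 549 bp in 446 members, against 244 windows just outside the rule with 450 to 499 bp in that library. Among windows covered in all WT libraries, 62 members had 450 to 499 bp in the cKO library with most coverage, and 151 windows just outside had 500 to 549 bp. The least WT value was exactly 500 bp in 339 members (37.7%), and it was 750 bp or more in 136 (15.1%). Raising the required coverage to 750 bp left 236 WT-only windows, of which 136 were members under the rule. Peaks of exactly 500 bp, the smallest size called, made up 15.6, 18.6 and 17.0% of the WT1 to WT3 peaks in the members, and 42.3, 47.9 and 47.7% of all peaks in those lists.

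The WT peaks in the members were longer than usual and of ordinary strength. Their median length was 1165, 1076 and 1255 bp in WT1 to WT3, against 634, 627 and 628 bp over each list, and a long peak is more likely to meet the rule. By the authors' own values, their median score was 10, 9.5 and 9.5 tags, against 9.5, 8.0 and 8.0 over the lists. The median fold over the surrounding 10 kb was 2.49, 2.56 and 2.53, against 2.51, 2.73 and 2.79, close to the lowest fold of 2.01 in any deposited H3K9me2 list. The lists also stop at a p-value of 0.0496 and at a clonal fold, a measure of duplicated tags, of 1. A clonal fold of 0.98 or more was held by 56.6, 55.7 and 59.9% of the members' WT peaks, against 60.2, 62.3 and 64.4% of all peaks in WT1 to WT3. A peak past any of these limits is not in the lists, so a window without a listed cKO peak is not shown to lack the mark.

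In the listed peaks the difference in coverage was narrow. Peaks were called at a size of 500 bp, and none was listed under 2.01-fold over the surrounding 10 kb. Signal raised evenly over a longer stretch would thus not be listed, and the part of these settings in the narrow difference was not tested. One kb to either side of a member, the mean covered share was 26.5 ± 1.45% in WT and 11.1 ± 3.76% in cKO (SD, n = 3 libraries). At 2 kb it was 8.56 ± 0.627% and 7.9 ± 2.27%, and from 3 to 10 kb it was 5.8 ± 0.54% and 6.18 ± 1.48%. Beyond the adjacent windows the genotype means thus differed by less than the SD of the cKO libraries. Both flanks were covered more than the genome, which averaged 3.73 ± 0.35% in WT and 4.49 ± 0.845% in cKO. Relative to that average, coverage from 3 to 10 kb was 1.67, 1.44 and 1.57 times in WT1 to WT3 and 1.46, 1.32 and 1.33 times in cKO1 to cKO3. These ratios overlap between genotypes at WT2 and cKO1, and the flanks include bases of the peaks that chose the members, so no test was made. The nearest cKO peak was a median of 171.5 bp away. A cKO peak lay within 1 kb of all but 266 members (29.6%), within 5 kb of all but 84 (9.33%) and within 20 kb of all but 1. The same distances were not measured for other windows. With 166835, 132724 and 107671 autosomal peaks in cKO1 to cKO3, a near cKO peak is not shown to be particular to members.

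**Figure D2:**
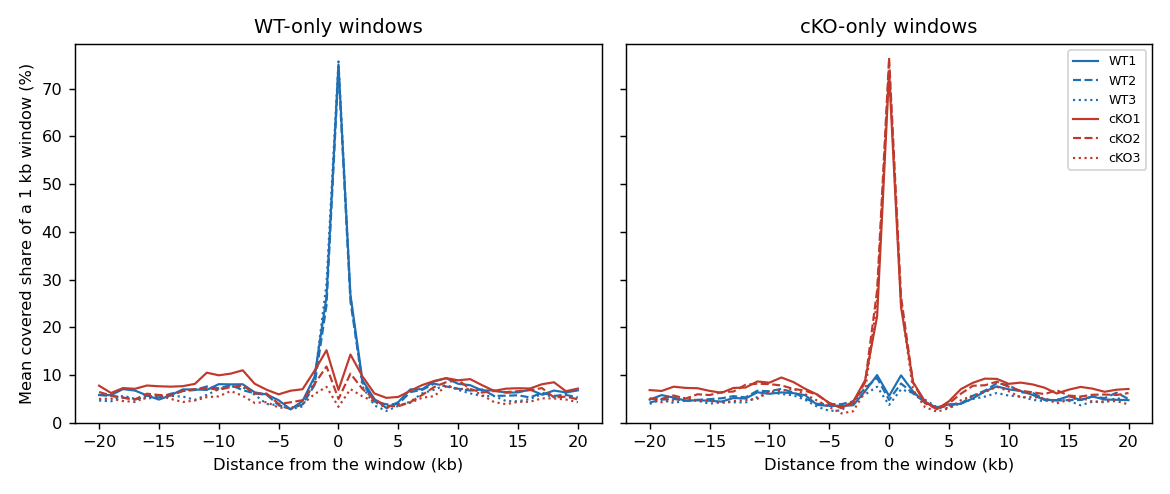
Mean share of a 1 kb window covered by H3K9me2 peaks (vertical axis, percent) against distance from the chosen window (kb), for WT-only windows (left) and cKO-only windows (right), with 1 line for each library. In WT-only windows the WT lines stand above the cKO lines at the centre, where the rule sets them apart, and at 1 kb (26.5% and 11.1%). From 3 to 10 kb the WT and cKO means are 5.8% and 6.18%.

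Members were scattered singly over the genome, and the part of the peak settings in this was not tested. Of the 900, 855 had no adjacent member, 42 lay in 21 runs of 2 windows and 3 in a single run of 3 windows. That run, chr2:14924001-14927000, lay in Cacnb2, which encodes an auxiliary subunit of voltage-gated calcium channels, and was covered over 2411, 2295 and 2204 bp in WT1 to WT3 and 0 bp in cKO1 to cKO3. A single peak in each WT library spanned the run, so its 3 windows are 1 observation. A run in Khdrbs2, the gene of an RNA-binding protein, at chr1:32673001-32675000 was covered over 1713, 1973 and 1437 bp in WT and 0 bp in every cKO library. The run at chr2:14366001-14368000, in no gene, was fully covered over 2000 bp in all WT libraries, with 648, 0 and 0 bp in cKO1 to cKO3. Another outside genes, chr1:48136001-48138000, had 1477, 1200 and 2000 bp in WT and 0, 48 and 0 bp in cKO. In these runs and the run at Rhbdd1 every WT value lay above every cKO value, as the rule requires.

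By megabase, 704 of 2470 windows of 1 Mb held a member, and 543 of these held 1. The richest was chr2:14000001-15000000 with 6 members and 1 cKO-only window, a stretch with Hacd1, Stam, Tmem236, Mrc1, Slc39a12, Cacnb2 and Nsun6. Its members include the run of 3 in Cacnb2 and the run of 2 at chr2:14366001-14368000, so they are fewer separate sites. Of the bases of this megabase, 5.59, 5.8 and 3.65% were covered in WT1 to WT3 and 6.52, 5.28 and 4.2% in cKO1 to cKO3, so the genotypes overlapped over its whole length. Further megabases held 4 members and 0 cKO-only windows each, and 3 of them are given here. In the one at chr8:98000001-99000000, with 0 protein-coding genes, coverage was 8.61, 6.74 and 6.6% in WT and 5.76, 3.01 and 3.67% in cKO, so the WT values lay above the cKO values. The one at chr4:90000001-91000000, which holds Zfp352, had 8.29, 5.29 and 5.35% in WT and 4.82, 3.62 and 3.3% in cKO, again without overlap. The one at chr1:95000001-96000000, with Fam174a and St8sia4, had 3.82, 4.23 and 4.12% against 5.47, 3.34 and 4.38%, with overlap. These megabases were picked for their members, so the values are a description. Per 10000 windows, members were most frequent on chromosome 8 (4.72, 61 members) and chromosome 6 (4.55, 68 members), and least on chromosome 11 (2.46, 30 members), chromosome 17 (2.74, 26 members) and chromosome 19 (2.77, 17 members).

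A protein-coding gene span held 266 members (29.6%), and 239 of 20665 autosomal protein-coding genes (1.16%) held at least 1 member, 23 of them at least 2. Cacnb2 held 4 members, the most windows of any gene. The 3 in its run lay under the same peak in each WT library, so this count holds 1 peak more than once. Besides the run, its member at chr2:14735001-14736000 was covered over 1000, 1000 and 643 bp in WT1 to WT3 and 437, 0 and 0 bp in cKO1 to cKO3. Over the whole span of Cacnb2 the peaks covered 6.69, 6.6 and 4.61% of bases in WT and 8.36, 4.69 and 3.14% in cKO, so the gene as a whole did not separate the genotypes, and cKO1 was the highest of the 6 libraries.

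Pakap, a readthrough gene that joins a paralemmin to an A-kinase anchoring protein, held 3 members. They were covered over 529 to 1000 bp in WT libraries and 0 bp in every cKO library. In Grm7, which encodes a metabotropic glutamate receptor, the fullest of 3 members, chr6:111012001-111013000, had 679, 1000 and 1000 bp in WT and 0 bp in all cKO libraries. The member next to it lay under the same peak in each WT library, so these are not separate observations. Only 36 bp, in cKO3, were covered by cKO peaks in the other members of Grm7. Ptprt, a receptor-type tyrosine phosphatase gene, held 3 members with 500 to 1000 bp in WT, and 39 bp in cKO2 was the highest cKO value in them. Lrp1b, a very long gene of the LDL receptor family, held 3. The one at chr2:41070001-41071000 was covered over 880, 921 and 1000 bp in WT, with no cKO peak within 6130 bp. Another, chr2:42270001-42271000, had 943, 1000 and 1000 bp in WT and 302 bp in cKO1.

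Genes with 2 members each, taken by the density of members, were Gm7827, Gfra2, Capn13, Fbn1 and Tns3. The 2 in Gm7827 were adjacent and lay under the same peak in each WT library. In Gfra2, the receptor gene for neurturin, chr14:70916001-70917000 was fully covered in all WT libraries and over 122, 0 and 348 bp in cKO1 to cKO3. In Capn13, a calpain protease gene, chr17:73318001-73319000 had 608, 500 and 609 bp in WT and 496, 0 and 0 bp in cKO, so cKO1 missed the threshold by few bases. In Fbn1, which encodes the microfibril protein fibrillin, chr2:125401001-125402000 had 608, 766 and 989 bp in WT and 0 bp in cKO. In Tns3, a focal adhesion gene, chr11:8603001-8604000 had 539, 719 and 1000 bp in WT and 0, 0 and 125 bp in cKO. Over whole gene spans, coverage in Tns3 was 10.5, 8.18 and 8.55% in WT and 7.5, 8.53 and 4.81% in cKO, and in Fbn1 10.5, 6.24 and 9.85% and 10.7, 9.68 and 6.2%. Both overlapped between genotypes.

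**Figure D3:**
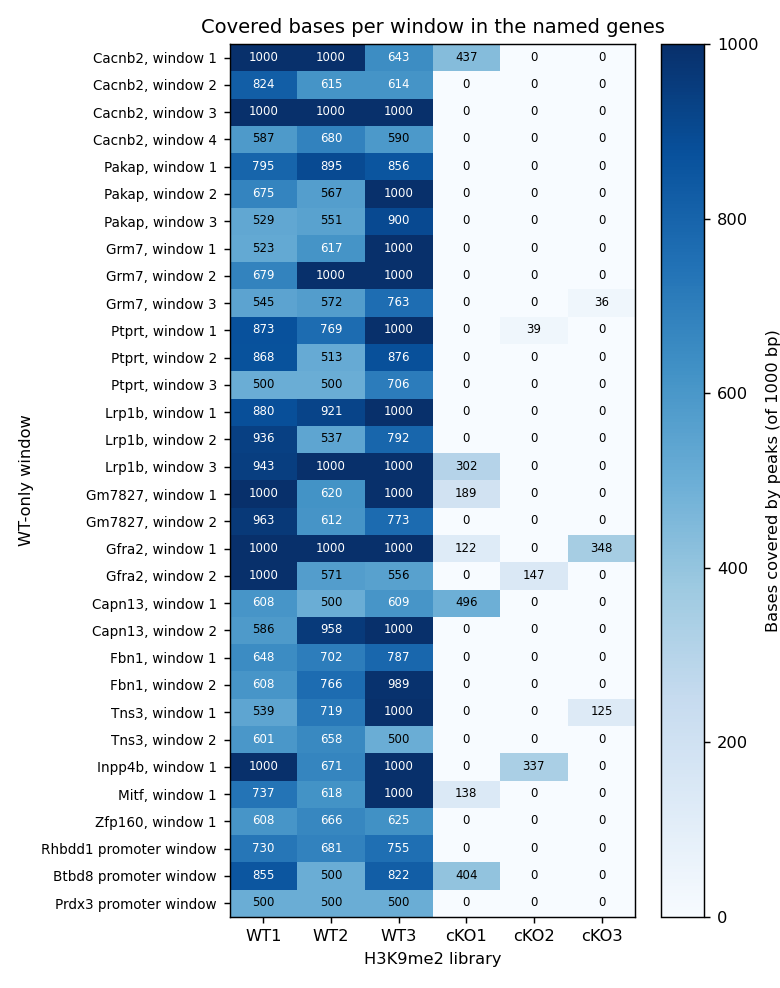
Bases of each 1 kb member covered by H3K9me2 peaks (colour and printed number, 0 to 1000 bp) in the 3 WT and 3 cKO libraries (columns), for members in the named genes (rows). The WT columns hold 500 bp or more by the rule, and the cKO columns are mostly 0, with values such as 496 bp in cKO1 at Capn13 close to the threshold.

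The members with the widest separation are given one by one. Among the 37 members fully covered in all WT libraries, 11 had no cKO peak within 1 kb. The one farthest from any cKO peak, by 9493 bp, was chr15:9423001-9424000, which lies 12.0 kb from the nearest coding gene. The window chr10:103746001-103747000, 327 kb from a coding gene, was 7877 bp from a cKO peak, and chr11:13286001-13287000, 821 kb from one, was 6860 bp away. Each had 1000, 1000 and 1000 bp in WT1 to WT3 and 0, 0 and 0 bp in cKO1 to cKO3. Of the 10 members farthest from a cKO peak among these, 8 lay outside coding genes, as did 634 of all 900 members. Those in genes were chr4:147350001-147351000 in Zfp978, a zinc-finger protein gene, 2422 bp from a cKO peak, and the central window of the run in Cacnb2.

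At the assembled start of chromosome 9, chr9:3000001-3002000, both windows were members, under 1 peak in each WT library. This peak scored 53.5, 67.0 and 67.5 tags in WT1 to WT3, and its fold over the surrounding 10 kb was 20.54, 16.72 and 18.06, far above the median near 2.5 of the members. Its clonal fold was 0.98, 1.0 and 0.99, near the highest value of 1.0 in every H3K9me2 list and near the median of 0.99 over all peaks of each WT list. All 3 cKO libraries had a peak a few kb on, starting at 3006468, 3006593 and 3006586, where the WT libraries had one too. Whether a cKO peak over these members was called and is absent from the lists was not tested.

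The share of members in a coding gene span, 29.6% (95% exact binomial interval 26.6 to 32.7%), was below the 40.7% of all autosomal windows. It was 36.4% in cKO-only windows, 33.2% in the 17591 windows of the mixed sets of 3 and 23.6% in the windows covered in all 6 libraries. No gene of any kind was annotated in 534 members (59.3%), against 50.4% of all windows. The share in coding genes fell with the number of libraries that covered a window, from 40.9% with 0 libraries and 41.1% with 1 to 33.2% with 3 and 23.6% with 6. The interval covers counting error only, adjacent windows share peaks, and no test over windows was made.

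This share also differed between the libraries themselves. It was taken over each library's covered windows outside the WT-only and cKO-only sets, with the mixed sets kept in. There the share in coding genes was 34.5, 38.5 and 38.5% in WT1 to WT3 and 37.5, 42.4 and 40.8% in cKO1 to cKO3. The means of 37.2 ± 2.31% and 40.2 ± 2.5% (SD, n = 3) did not separate (exact permutation test, two-sided p = 0.3, adjusted p = 0.45 over 3 features, smallest possible p = 0.1). WT1 had the lowest value and cKO2 the highest. The part of this spread between libraries in the members' share was not tested. The WT-only share in coding genes was 35.1% without WT1, 33.7% without WT2 and 32.0% without WT3.

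Distances to genes and to open chromatin were measured next. The 634 members outside coding spans lay a median of 80.5 kb from the nearest one, against 41.8 kb in cKO-only windows, 60 kb in the mixed sets and 92.3 kb over all windows. The median distance to a tumour ATAC peak was 127 kb, against 53.9, 80.6 and 108 kb in the same order. It was longer, 148 kb, in the windows covered in all 6 libraries. A tumour ATAC peak lay in the window or within 5 kb for 35 members (3.89%), against 12.8% of cKO-only windows, 5.97% of the mixed sets and 10.2% of all windows. The ATAC cells were JMJD1CWT, so the ATAC data say nothing of open chromatin in cKO. This share too fell with the number of covering libraries, from 10.3% with 0 to 6.37% with 3 and 4.24% with 6. Over each library's windows outside the WT-only and cKO-only sets it was 5.69, 9.1 and 9.05% in WT1 to WT3 and 8.56, 11.8 and 10.8% in cKO1 to cKO3 (exact permutation test of the means, 7.95 ± 1.95% and 10.4 ± 1.66%, p = 0.3, adjusted p = 0.45). WT1 was again the lowest.

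**Figure D4:**
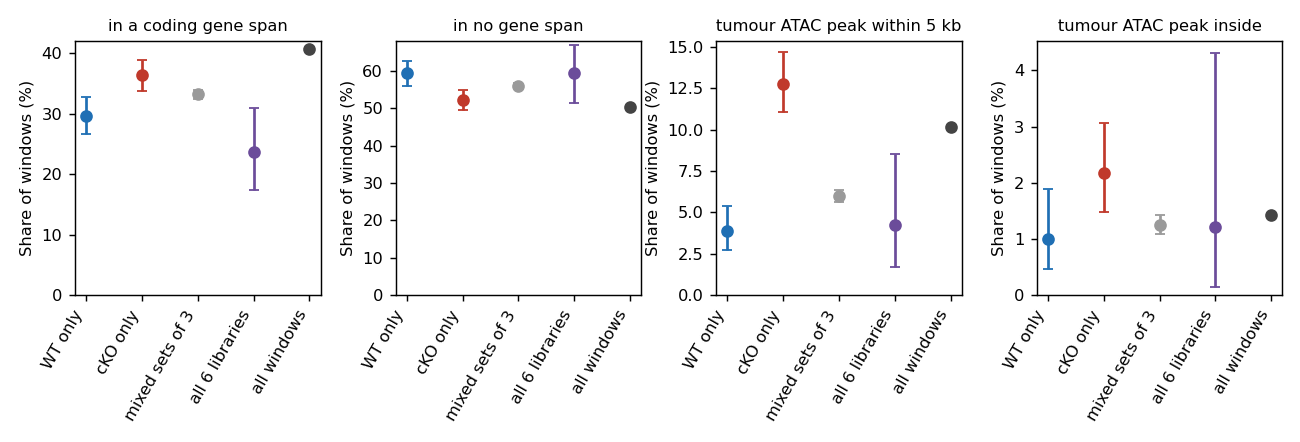
Share of windows (vertical axes, percent) in a coding gene span, in no gene span, with a tumour ATAC peak within 5 kb and with one inside, for 5 sets of windows. Points are shares and bars 95% exact binomial intervals. The share within 5 kb of an ATAC peak is 3.89% in WT-only windows, near the 4.24% of windows covered in all 6 libraries. WT-only windows have a lower share in coding genes than all windows (29.6% and 40.7%).

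Gene density was counted over the surrounding megabase, with a median of 5 coding genes around members and 6 over all windows. A megabase with 0 coding genes surrounded 12.2% of members, 5.47% of cKO-only windows, 8.36% of the mixed sets and 10.2% of all windows. Megabases with 20 or more genes held 7.22, 11.1, 8.64 and 11.7% in that order. Per 10000 windows, members numbered 4.38 in megabases without genes, 3.66 to 3.9 at 1 to 19 genes and 2.25 at 20 or more, so they were spread evenly except at the gene-rich end. The cKO-only windows numbered 3.11 without genes and 7.22 at 10 to 19 genes. Coverage in the single libraries overlapped between genotypes in both of these classes. cKO1 was the highest library without genes, and WT2 lay above cKO3 at 10 to 19 genes. In megabases without genes, 4.37, 3.86 and 3.1% of windows were covered in WT1 to WT3 and 4.43, 2.73 and 2.55% in cKO1 to cKO3, while at 10 to 19 genes it was 3.55, 4.25 and 3.59% in WT and 5.54, 5.49 and 4.21% in cKO. WT1 covered more of the windows without genes than of those with 10 to 19, and the other 5 libraries covered less.

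**Figure D5:**
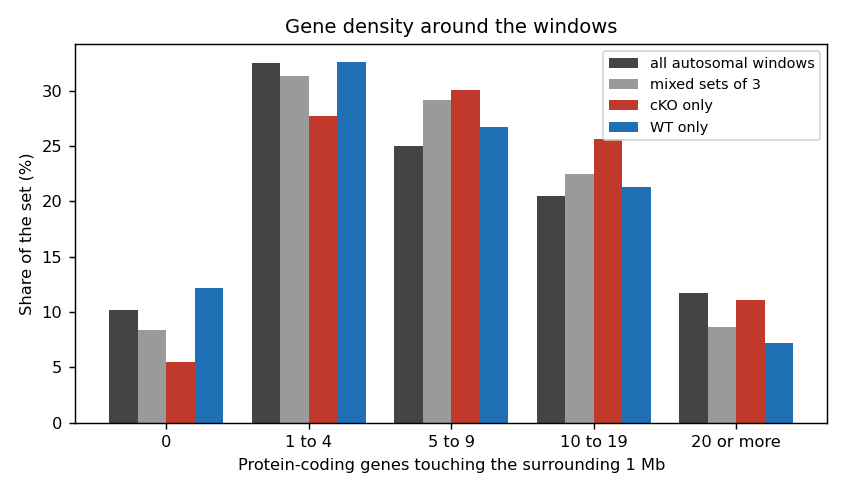
Share of each set of windows (vertical axis, percent) by the number of protein-coding genes touching the surrounding 1 Mb (horizontal axis). WT-only windows (blue) exceed cKO-only windows (red) where there are 0 genes (12.2% and 5.47%) and fall below them at 20 or more (7.22% and 11.1%).

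Genes that held members were long. Their median length was 239 kb, against 135 kb for the 467 genes with a cKO-only window and 17.5 kb for all coding genes. Of the 216 genes over 500 kb, 54 (25%) held a member, against 3 of 7339 genes under 10 kb (0.0409%). A long gene offers more windows, and the frequency per window rose as well, from 0.787 members per 10000 windows in genes under 10 kb to 2.1 in genes of 50 to 200 kb, 4.04 in genes of 200 to 500 kb and 3.67 in longer genes. It rose with length in the other sets too, from 2.88 to 6.23 in cKO-only windows and from 29.9 to 75.5 in the mixed sets between genes under 10 kb and genes of 200 to 500 kb. Both kinds of window were held by 45 genes, which is 18.8% of the genes with WT-only windows and 9.64% of those with cKO-only windows. Of all 20665 coding genes, 2.26% held a cKO-only window and 1.16% a WT-only window. Genes with either kind were long, as given above, and the part of length in this overlap was not tested.

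A tumour ATAC peak touched 9 members (1.0%, exact binomial interval 0.458 to 1.89%), against 1.43% of all windows, 1.24% of the mixed sets and 2.18% of cKO-only windows. A spleen ATAC peak touched 7 members (0.778%), against 0.97, 0.921 and 1.75% in the same order, so this count is near the background. The interval for the tumour peaks holds the shares of all windows and of the mixed sets. The 4 coding promoters shown above were among the 9. Their tumour ATAC peaks held 161.6 tags, scaled to a library of 10000000, at Prdx3, 108.5 at Rhbdd1, 81.0 at Btbd8 and 39.8 at Zfp160, all above the list's median of 24.3, and the spleen peaks held 45.6, 38.8, 78.1 and 26.2. At Rhbdd1 the tumour peak, chr1:82316560-82316881, overlapped the H3K9me2 peaks by 171, 122 and 196 bp in WT1 to WT3. At Prdx3 the overlap was 285, 322 and 322 bp of the 322 bp ATAC peak, so peaks of the mark and of open chromatin were called over the same bases in different libraries. Whether both lie on the same molecules or in the same cells cannot be read from these lists. The kit named for H3K9me2 uses the transposase that ATAC-seq uses, and its part in these overlaps was not tested.

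Genes of Treg and T cell programmes were counted next. Of 246 genes in 15 lists, which cover the enzymes of H3K9 methylation, the identity and tumour programmes of Treg, T cell signalling pathways, other cell types and housekeeping genes, 2 (0.813%) had a member in the span or within 5 kb, beside 290 of 20665 genes (1.4%) in all, so the count is near the background. No member lay at any of 18 autosomal Treg identity genes, 26 tumour and effector Treg genes, 19 inhibitory receptor genes or 18 JAK-STAT3 genes. The list genes were short, with a median of 27.1 kb. Inpp4b, a phosphatase that removes the lipid products of PI3K, had 1 member at chr8:81410001-81411000, covered over 1000, 671 and 1000 bp in WT1 to WT3 and over 0, 337 and 0 bp in cKO1 to cKO3. Over its whole 792 kb the direction was the opposite, with 4.78, 4.26 and 3.92% of bases covered in WT and 7.46, 6.82 and 5.78% in cKO, and the groups did not overlap. Over all autosomal windows mean coverage was higher in cKO too, 4.49% against 3.73% in WT, with overlap between libraries. Mitf, the transcription factor of melanocytes, had 1 at chr6:97864001-97865000, with 737, 618 and 1000 bp in WT and 138, 0 and 0 bp in cKO. Over the span of Mitf, 7.28, 8.66 and 6.26% of bases were covered in WT and 10.9, 7.12 and 9.31% in cKO, with overlap. In the cKO-only direction 8 genes of the lists had a window, among them the Treg identity gene Foxo1 and the demethylase gene Kdm4c, against 621 of all 20665 genes.

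Large gene families that are silent in T cells or often marked by H3K9 methylation were counted against the 1.4% of all genes with a member in the span or within 5 kb. Zinc-finger genes had a member at 8 of 415 (1.93%), vomeronasal receptor genes at 4 of 352 (1.14%), olfactory receptor genes at 4 of 1104 (0.362%) and clustered protocadherin genes at 0 of 57. A cKO-only window lay at 10 zinc-finger, 4 vomeronasal receptor, 0 olfactory receptor and 0 protocadherin genes. The zinc-finger genes were Zfp937, Zfp978, Zfp804b, Zfp235, Zfp974, Zfp423, Zfp160 and Zfp945. Receptor genes are short, with a median of 0.95 kb in the olfactory family, and 3 of its 4 members lay beside the gene and not in it. At Olfr1382, for example, the member at chr11:49541001-49542000 had 500, 981 and 684 bp in WT and 462, 266 and 0 bp in cKO. At Olfr91, whose span holds its member, the values were 500, 759 and 567 bp in WT and 0 bp in cKO1 to cKO3.

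Members that met the rule with room to spare were compared with those at its edge. In the 136 members with at least 750 bp in every WT library, 25.7% lay in a coding gene span and 2.21% within 5 kb of a tumour ATAC peak, against 28.7% and 4.26% of the 446 members with a least value of 500 to 549 bp. In the 509 members without a cKO base the shares were 28.1% and 4.32%, and in the 391 with some cKO bases 31.5% and 3.32%. A tumour ATAC peak touched 1.47% of the 136 members and 0.897% of the 446, the reverse of their order within 5 kb. Of all 900 members, 35 lay within 5 kb of such a peak, so the ATAC shares rest on few windows. None of these shares was tested.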

How the data were processed

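H3K9me2 was measured in 6 libraries and open chromatin in 2. The authors called peaks in each library alone with HOMER findPeaks, per the file headers, without a control library: H3K9me2 with a peak size of 500 bp, a tag threshold of 5 and a local region of 10 kb. Bowtie2 2.4.2, SAMtools 1.11, Picard, Trim Galore 0.6.6, deepTools and the build mm10 are listed without roles in the submitters' processing notes. The deposited files give, for each peak, a signal of tags scaled to 10000000, a score in tags, a fold over the local region, p-values, the region size (other unit) and, for ATAC, a focus ratio as a fraction. Depth was 24774509 to 30313851 tags per H3K9me2 library, 11293674 for tumour ATAC and 11068821 for spleen ATAC. The deposited H3K9me2 lists hold 24.4 to 43.9% of the peaks that their headers count, for a reason that is not stated. Tag directory names in the headers differ within and between genotypes, and what their parts mean is not stated. Whether the libraries were handled alike is not stated either, so any difference in handling could not be told apart from genotype. Both cKO1 and cKO3 carry KO4 in that name, so the independence of these libraries is not shown.

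Peaks were merged within a library and the covered bases of each autosomal window counted (Python 3.11.15, numpy 2.4.6, pandas 2.3.3, scipy 1.17.1). Gene spans came from RefSeq on GRCm38.p6, the build of mm10. On simulated peaks all 200 of 200 planted windows were recovered. Each was built to meet the rule, so this checks the counting only and not recovery in real lists. Members, gene lists, families and alternatives were chosen with earlier results of these data known. Named were the 5 longest runs, the 10 genes with most members, list genes with a member, members with a tumour ATAC peak, the 10 fully covered members farthest from cKO peaks, members at the threshold and members at coding promoters; megabases, families, non-coding starts and chromosome 9 were singled out after their values were seen. Windows were not tested for a genotype difference, since the rule used all 6 libraries. Shares of each library's windows outside the WT-only and cKO-only sets were compared by an exact permutation test. Window sequence, repeats, GC content and exons were not used here.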

Additional observations from a re-analysis of the deposited data

How the results depend on the processing

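The 900 WT-only and 1425 cKO-only windows became 1958 and 3166 with 250 bp of coverage required, 236 and 372 with 750 bp, 509 and 862 with 0 bases in the other genotype, 182 and 285 in windows of 2 kb, and 469 and 606 with the stronger 50% of each list. With lists of equal length they were 905 and 869, so that the excess of cKO-only windows was not kept. A grid shifted by 500 bp gave 869 and 1368, adding chromosome X gave 983 and 1526, and merging peaks up to 500 bp apart changed neither. Leaving out 1 library gave 1118 to 6072 WT-only and 1742 to 9550 cKO-only windows, since fewer libraries then had to meet the rule. The share of WT-only windows in coding gene spans was 25% with 750 bp, 18.7% in windows of 2 kb, 24.5% with the stronger 50% of each list and 34.9% with spans extended by 5 kb, and it was 26.7 to 35.1% with 1 library left out. The share with a tumour ATAC peak was 0.426% with the stronger 50% of each list, where it rests on 2 windows, and 0.744 to 2.11% with 1 library left out. No paired analysis was possible because the windows come from a rule and not from a test, and no label ties a WT replicate to a cKO replicate. Depth limits the absence of a peak: at a threshold of 5 tags and a median score near 10, a weak cKO peak can be missed, which was not tested.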

Other observations

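On chromosome X, which the rule leaves out, 83 of 170882 windows were covered in all WT libraries and no cKO library, which is 4.86 per 10000 windows, and 101 showed the reverse, which is 5.91 per 10000. No sex is given in the labels.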
